A study of Mus musculus with 8 samples.

Results

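MHC class II positive myeloid cells were the host immune cells of these allografts that carried the transcripts of the class II antigen-presenting molecules but few transcripts of microglia. They were chosen cell by cell from 4 sets of genes: at least 10 UMIs (unique molecular identifiers, each standing for 1 captured RNA molecule) in all of H2-Aa, H2-Ab1, H2-Eb1 and Cd74, at least 1 UMI of Tyrobp or Fcer1g, at most 2 UMIs of P2ry12, Tmem119, Gpr34 and Cx3cr1 together, and tumour transcripts (eGFP and Mycl) below 0.2% of the cell's UMIs. Cells with fewer than 500 detected genes, or with over 10% of UMIs from mitochondrial genes, were dropped. By this rule 441 of 36797 kept cells were chosen, of 38460 deposited cells.

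The study grew allografts of N2N1G, a mouse small cell lung cancer cell line, in mice and profiled them by droplet-based single-cell 3' RNA sequencing 3 weeks after transplantation. The 8 libraries were 2 brain allografts placed by direct injection, 3 liver allografts seeded through the tail vein, and 3 subcutaneous allografts injected directly at the flank. All grafts were of the same line and dose, so the sites differ in both host tissue and, for liver, route. The labels give neither the strain, the age nor the sex of the hosts, name no treatment, and say that healthy single cells were sorted. Each library's description also carries a gfp tag whose meaning is not given, so the sort may set the shares of host cells. Replicates are separate allografts by their titles, and nothing says whether hosts or days were shared, so p-values measure the spread between these libraries.

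MHC class II molecules display peptides from engulfed or endocytosed protein to CD4 T cells. The alpha and beta chains (H2-Aa with H2-Ab1, and H2-Eb1 with its alpha partner) assemble with the invariant chain Cd74, which is then cut away by cathepsins, and H2-DM loads the peptide while H2-O holds H2-DM back. The coactivator Ciita switches these genes on through a short promoter module, the X and Y boxes. Dendritic cells carry class II molecules steadily, monocyte-derived cells and macrophages gain them under stimulation, and resting microglia hold little.

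The promoter module is shown for 3 class II genes because the chosen cells are defined by this gene family. The stretches are the 150 bases upstream of the start site from RefSeq (GRCm38.p6), 5′ to 3′ on the strand of the gene, with an X-like match (CTNGNAACT) and a Y-like match (TGATTGG) in capitals. The stretch of H2-Aa is chr17:34287824-34287973 on the minus strand, and those of H2-Eb1, chr17:34305717-34305866 and H2-DMb1 at chr17:34153041-34153190 lie on the plus strand.
H2-Aa: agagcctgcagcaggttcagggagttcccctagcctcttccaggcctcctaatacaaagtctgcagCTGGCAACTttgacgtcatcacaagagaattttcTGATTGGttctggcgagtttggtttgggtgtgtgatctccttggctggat
H2-Eb1: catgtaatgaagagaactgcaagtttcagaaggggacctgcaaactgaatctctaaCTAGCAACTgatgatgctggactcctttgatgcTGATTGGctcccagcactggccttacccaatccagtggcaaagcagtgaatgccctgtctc
H2-DMb1: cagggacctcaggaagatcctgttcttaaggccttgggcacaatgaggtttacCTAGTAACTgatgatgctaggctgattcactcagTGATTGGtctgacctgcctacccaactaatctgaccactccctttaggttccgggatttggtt

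The X-like match began 84 bases before the start site in H2-Aa, 94 in H2-Eb1 and 97 in H2-DMb1. The Y-like match followed after 25, 24 and 25 bases. The gene annotation GENCODE M21 starts H2-DMb1 at chr17:34153072, inside its stretch, so its distance of 97 bases holds for the RefSeq start only. Both letters were picked after these promoters had been read, and both strands were searched in windows of 300 bases (250 before and 50 after the start site). Of 32851 promoters in the table, 4.10% held the X-like letters and 7.82% the Y-like letters, and 5 (0.0152%) held them in this order within 40 bases. Those 5 were H2-Aa, H2-Eb1, H2-DMb1, BC051142 and 1700048F04Rik. H2-Ab1 and Ciita had no entry among these promoters, so they were not searched. Such a match is a description of letters. H2-Aa and H2-Eb1 were part of the rule, whereas H2-DMb1 was not and its values are given with the peptide-loading genes.

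The limit of 10 class II UMIs lies where few cells fall, with no gap at it. Among myeloid cells with few microglial UMIs, 160 had 0 class II UMIs, 114 had 1 to 4 and 25 had 5 to 9. Just inside the limit 8 cells had 10 to 14 and 8 had 15 to 19, then 84 had 20 to 99, 140 had 100 to 499 and 201 had 500 or more. The 25 cells just outside had a median of 3287 UMIs in all and the 8 just inside 3099, against 8057 in cells with 500 or more class II UMIs. The counts are thin on both sides of the limit, and the class II UMI count goes with the cell's total depth.

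**Figure D1:**
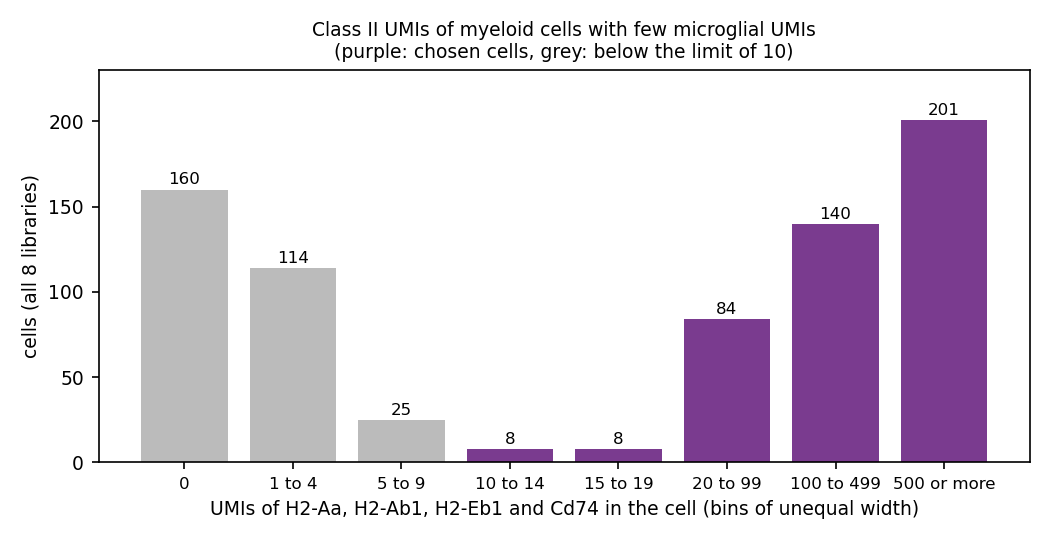
Number of myeloid cells with at most 2 microglial UMIs (y axis, all 8 libraries) by their UMIs of H2-Aa, H2-Ab1, H2-Eb1 and Cd74 (x axis, bins of unequal width). Purple bars are the chosen cells and grey bars the cells below 10 UMIs; 25 cells lie at 5 to 9 UMIs and 8 at 10 to 14, against 201 at 500 or more.

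The chosen cells had a median of 6548 UMIs, 1941 genes and 460 class II UMIs (10th percentile 31, highest 1595). Class II UMIs made up a median of 6.95% of a cell's UMIs in brain replicate 1, 6.73% in brain replicate 2, 9.23% in liver replicate 2 and 6.93% in subcutaneous replicate 1, and single cells ran from 0.108% to 18.8%. Levels are given as CPM, the UMIs of a gene per 1000000 UMIs summed over the cells of a library. H2-Aa stood at 16405 and 14712 in brain, 19426 in liver replicate 2 and 14273 in subcutaneous replicate 1. Cd74 stood at 32746 and 33048, 43652, and 33379 in the same order. These levels follow from the rule and are described only. As a background, tumour cells held H2-Aa at 8.8 CPM and Cd74 at 18.6 CPM.

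Ms4a6c, a membrane protein gene of monocytes and macrophages that the rule did not use, was found in 78.2% of chosen cells of brain replicate 1, 73.5% of brain replicate 2, 91.7% of the liver cells and 84.1% of subcutaneous replicate 1. It was found in 26.0% of microglia-gated cells and in 0.366% of tumour cells. Markers of lymphocytes and mast cells were nearly missing. Of 6 T or NK cell markers measured, 5 had 0 UMIs in the chosen cells, and the list summed to 0.349 CPM. All 4 mast cell or basophil markers had 0 UMIs, and 5 B cell markers summed to 27.2 CPM, against 11.1 CPM in tumour cells. At least 1 eGFP UMI was seen in 19.7% of the chosen cells and in 19.8% of microglia-gated cells. Doublets were not called, and their part was not tested. No barcode was shared between 2 chosen cells, while 17 of them had a barcode that also occurs in another library.

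Kept cells per library numbered 3376 to 6406, with medians of 7011.5 to 10344 UMIs and library totals of 27140735 to 63049542 UMIs. Brain replicates 1 and 2 gave 216 and 113 chosen cells. Liver replicates 1 to 3 gave 5, 16 and 3, and subcutaneous replicates 1 to 3 gave 88, 0 and 0. Only libraries with at least 10 of them enter the gene comparisons, so liver and subcutaneous tissue are each represented by 1 library there.

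MHC class II positive myeloid cells were most frequent in brain allografts. They made up 6.40% of kept cells in brain replicate 1 (exact 95% interval 5.60% to 7.28%) and 2.56% in brain replicate 2 (2.12% to 3.07%). The liver libraries held 0.120%, 0.367% and 0.0624%. Subcutaneous replicate 1 held 1.99% (1.60% to 2.45%), whereas replicates 2 and 3 held none, which allows shares of up to 0.0468% and 0.0619%. Both brain libraries lay above all others, and the subcutaneous libraries differed more among themselves than liver did. Intervals and upper limits cover counting error only.

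Brain had a mean share of 4.48% ± 2.71 (SD, n = 2). Liver had a mean of 0.183% ± 0.162 (SD, n = 3), and subcutaneous tissue a mean of 0.663% ± 1.15 (SD, n = 3). An exact permutation test of the F statistic over all 560 assignments of libraries to sites gave p = 0.0357, with brain 4.06 percentage points above the mean of the other sites. The pairs of brain with liver and of brain with subcutaneous tissue each reached p = 0.1 by exact permutation, as low as 2 against 3 libraries can go, and 0.15 when adjusted over the 3 pairs. Liver and subcutaneous tissue did not differ beyond their spread (exact permutation p = 1). Without brain replicate 1 the difference was 2.14 points (exact permutation p = 0.2), and without brain replicate 2 it was 5.98 points (p = 0.143); leaving out any 1 liver library gave p = 0.0952. Shares are of all sorted cells, so fewer tumour cells and more myeloid cells cannot be told apart.

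**Figure D2:**
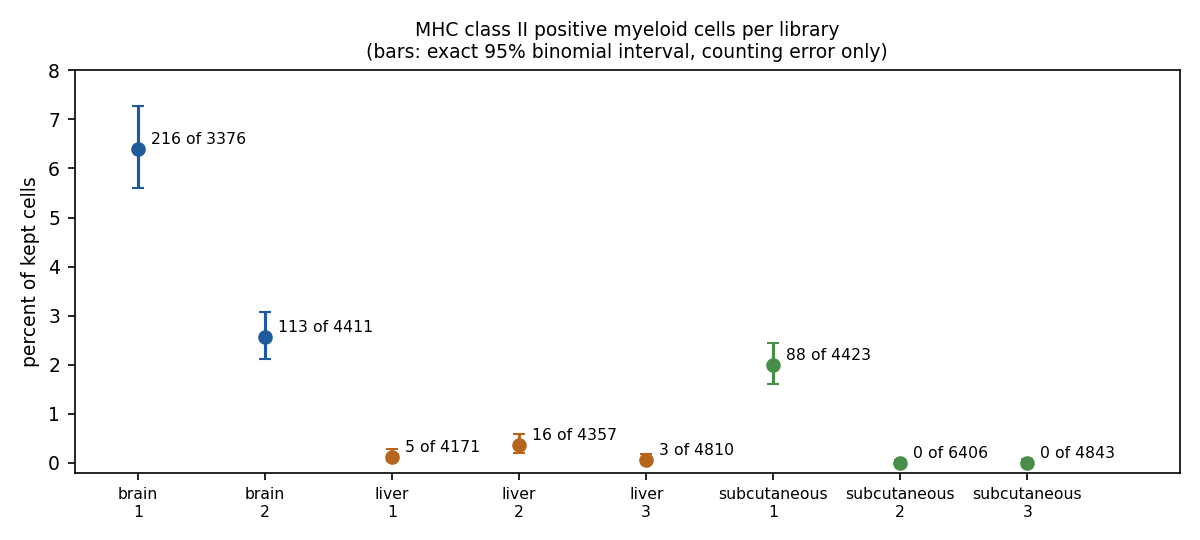
Percent of kept cells that are MHC class II positive myeloid cells (y axis) in each of the 8 libraries (x axis), with the count of cells; error bars are exact 95% binomial intervals. Brain replicates lie at 6.40% and 2.56%, above the 6 other libraries.

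The share of class II positive cells among all myeloid cells with few microglial UMIs showed no such order. It was 56.4% of 383 cells and 71.5% of 158 in brain, 62.5% of 8, 30.2% of 53 and 27.3% of 11 in liver, and 69.8% of 126 in subcutaneous replicate 1. Subcutaneous replicate 3 had 1 such cell, which was class II low, and replicate 2 had none. Brain lay 26.5 points above the mean of the other sites (exact permutation test over 210 assignments, p = 0.59), and without the library of 1 cell the difference was 9.04 points. Cycling was rare: at least 2 UMIs of Mki67 and Top2a were seen in 1 of 216, 0 of 113, 0 of 16 and 1 of 88 chosen cells of brain replicates 1 and 2, liver replicate 2 and subcutaneous replicate 1.

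The chosen cells were a mixture of monocyte-like, dendritic-like and macrophage-like cells. Clustering divided them into 8 clusters, named only from fixed marker lists, and all cluster values are a description because the same genes made the clusters. Cluster 1 (114 cells) was monocyte-like. Ccr2, the receptor that brings monocytes out of blood, was found in 78.1% of its cells and Plac8 in 90.4%, and Ly6c2 stood at 236 CPM against 43.4 in the other clusters. Its leading genes were Hp, Thbs1 and Ear2.

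Clusters 4, 6, 7 and 8 carried dendritic cell markers. Cluster 4 (53 cells) was like conventional dendritic cells of type 2 (cDC2-like), with the lectins Cd209a at 1424 CPM against 159 outside, Mgl2 and Clec10a. Cluster 6 (34 cells) was mature dendritic-like: Ccr7, the receptor for travel to lymph nodes, stood at 4248 CPM against 39.4, and the actin bundler Fscn1 at 4005 CPM against 18.0. Cluster 7 (27 cells) was like cDC1, the type that cross-presents antigen, with Xcr1 in 51.9% and Clec9a in 55.6% of cells and Irf8 at 1781 CPM. Cluster 8 (8 cells) was plasmacytoid-like, with Siglech in 87.5% and Ccr9 in 75% of its cells.

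Cluster 5 (47 cells) was macrophage-like, with C1qa at 5149 CPM against 472 and Ms4a7 at 1096 CPM. Clusters 2 and 3 stayed unnamed. Cluster 2 (95 cells) was led by Ltb, Il1r2, Ifitm1, Cygb and Cdh1 and also held Flt3 in 57.9% and Itgax in 69.5% of its cells. Cluster 3 (63 cells) was led by Slc40a1, Vcam1, Ccl8 and Igf1. Its cells had a median of only 2002 UMIs and 39 class II UMIs. C1qa stood at 6778 CPM, above the 5149 CPM of cluster 5, and Apoe at 21710 CPM. None of its 10 leading genes is on the macrophage list, while C1qa and Apoe are. Cluster 5 alone may therefore not hold all macrophage-like cells.

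Several class II processing genes differed widely between these clusters. H2-Aa lay between 4694 CPM (cluster 8) and 23400 CPM (cluster 4). H2-Oa, a chain of the H2-DM inhibitor, stood at 258 CPM in cluster 2, 154 in the cDC2-like, 117 in the mature dendritic-like, 103 in the cDC1-like and 225 in the plasmacytoid-like cluster, at 1.2 CPM in the monocyte-like cluster, and at 0 in clusters 3 and 5. H2-DMb1, of the peptide loader, lay at 61 CPM in the mature dendritic-like cluster and between 337 and 1477 CPM in all others. Its near-identical copy H2-DMb2 stood at 279 CPM in the mature dendritic-like cluster, and ranged from 25.9 CPM in cluster 3 to 442 in cluster 2. Reads may be split between these copies, so the low H2-DMb1 alone does not show a low level of that chain. Ciita ranged from 6.4 CPM in cluster 3 to 241 in the cDC2-like cluster. The protease gene Lgmn stood at 3392 CPM in cluster 3 and 2363 in the macrophage-like cluster against 151 in the cDC2-like cluster. Ctsl, another protease gene, stood at 787 CPM in the plasmacytoid-like cluster, 506 in cluster 3 and 375 in the macrophage-like cluster, and at 10.2 to 211 CPM in the others.

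**Figure D3:**
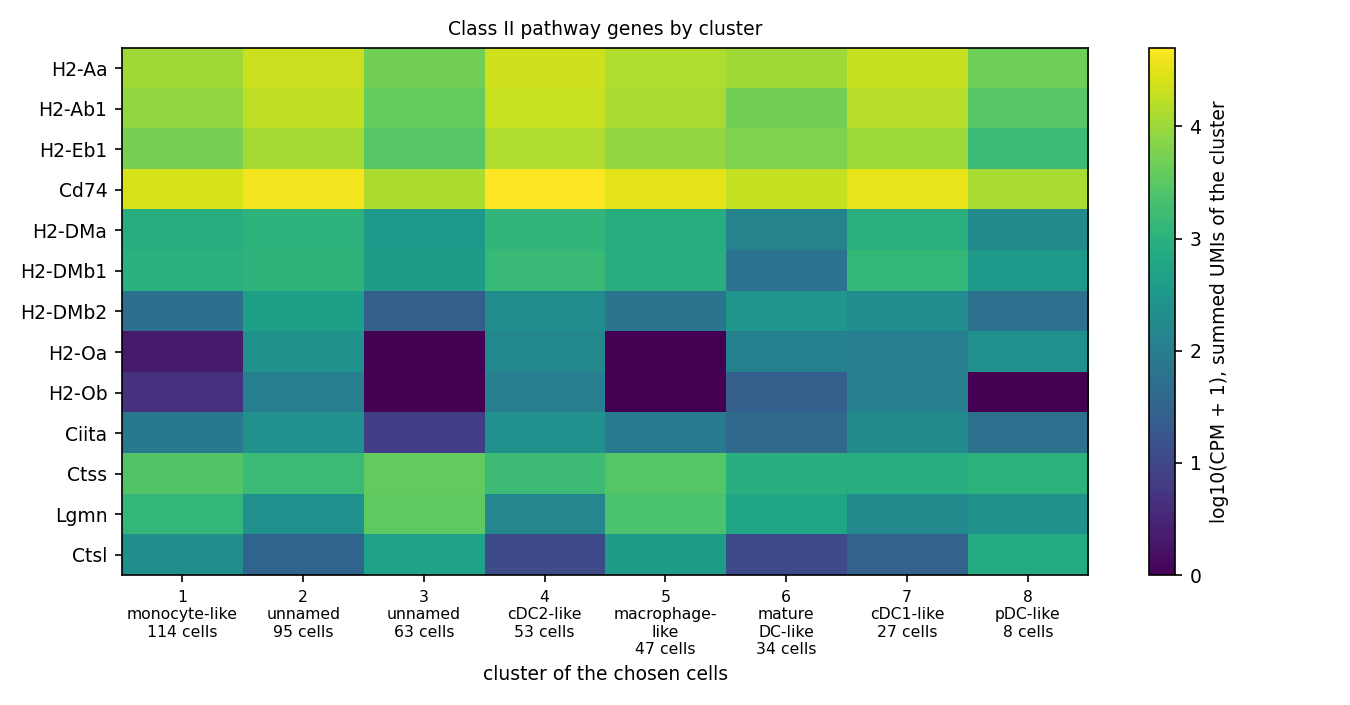
Level of 13 class II pathway genes (rows, log10 of CPM + 1 of the summed UMIs) in the 8 clusters of chosen cells (columns, with the number of cells). H2-Oa is dark (near 0) in clusters 1, 3 and 5 and stands at 258 CPM in cluster 2. H2-DMb1 is lowest in cluster 6 (61 CPM), where its near-identical copy H2-DMb2 stands at 279 CPM.

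Against microglia-gated cells of the same brain libraries, the chosen cells were higher in monocyte, dendritic and antigen-loading genes and lower in microglial genes. Microglia are the resident macrophages of the brain; 511 cells were gated by at least 3 UMIs of the 4 microglial genes and fewer than 10 class II UMIs, 415 and 94 of them in the brain libraries. UMIs were summed per library and gate and compared with edgeR's quasi-likelihood test with library as a block, with the genes of the gate left out. Of 4878 genes 1854 were called at an adjusted p under 0.05 (38%), 934 higher (19.1%) and 920 lower (18.9%). Genes that vary with class II or microglial transcripts from cell to cell were bound to differ, so these calls describe the gated cells and are no independent evidence.

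The genes with the largest rise were Sirpb1c, Gpr171, Ccr2, Napsa, Klrk1, Plbd1, Ciita and Traf1. Ccr2 stood at 220 and 168 CPM in the chosen cells of the 2 brain libraries (439 UMIs) and had 0 UMIs in the microglia-gated cells of these libraries, which makes it at least 146-fold higher by a floor of 3 UMIs over the group (edgeR adjusted p = 1.2e-14). Ciita stood at 130 and 208 CPM against 0 UMIs, at least 110-fold higher (adjusted p = 1.4e-18). Napsa, an aspartic protease of antigen-presenting cells, stood at 461 and 574 CPM against 0.5 and 0 CPM (adjusted p = 1.6e-21). Klrk1 encodes the activating receptor NKG2D and Traf1 a signalling adaptor, and both had 0 UMIs in the microglia-gated cells of brain.

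The genes with the largest fall were Tmem100, Slc2a5, Csmd3, Fam167b, Nav3, Adamts1, Olfml3 and Mlph. Slc2a5, the fructose transporter typical of microglia, stood at 236 and 389 CPM in microglia-gated cells against 0.7 and 0 CPM (log2 fold change -8.25 ± 0.50 SE, edgeR adjusted p = 1.6e-21). Olfml3, another microglial gene, stood at 679 and 1160 CPM against 6.0 and 6.1. All 16 genes kept their call under every alternative in which they were tested (205 values). Each of them differed in the same direction in both brain libraries, as did 81.7% of all genes tested.

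**Figure D4:**
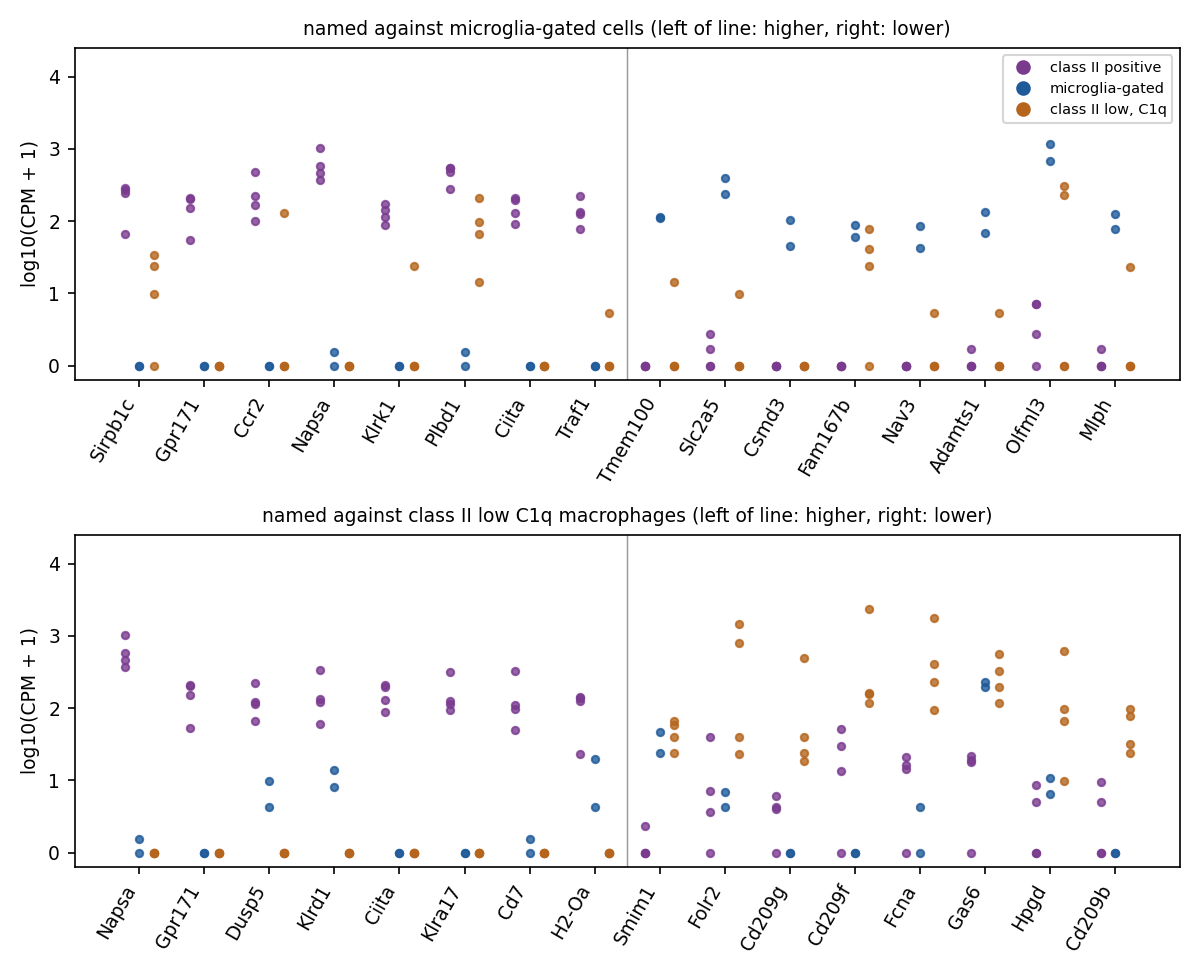
Levels (y axis, log10 of CPM + 1) of the named genes (x axis) in chosen cells (purple, 4 libraries), microglia-gated cells (blue, 2 brain libraries) and class II low C1q macrophages (orange, 4 libraries); each point is a library. Napsa, Gpr171 and Ciita are at or near 0 in both other groups, and Olfml3 is highest in microglia-gated cells at 679 and 1160 CPM.

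Of 12 class II pathway genes tested outside the gate, 6 rose, 3 fell and 3 were not called (median log2 fold change 1.11, against -0.01 over all genes). Over all genes 19.1% rose and 18.9% fell, which is the background for this and the following list counts against microglia-gated cells. The peptide-loading genes rose: H2-DMa stood at 853 and 881 CPM against 94.9 and 110, and H2-DMb1 at 1049 and 860 against 213 and 214 (log2 fold change 2.43, edgeR adjusted p = 2.9e-07). H2-DMb2, H2-Oa, H2-Ob and Ciita rose too. The genes that fell were the proteases Ctss, Ctsl and Lgmn, which stood at 2118 and 2026, 173 and 173, and 986 and 951 CPM in the chosen cells and at 7154 and 9373, 866 and 1005, and 5290 and 6427 CPM in microglia-gated cells. In all, 10 of 12 lysosomal genes fell and 0 rose. H2-DMb1 and H2-DMb2 are near-identical copies whose reads the counting could split.

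Of 10 class I pathway genes 6 rose and 0 fell, among them the immunoproteasome subunits Psmb8 (log2 fold change 1.89) and Psmb9 and the peptide transporter Tap1 (1.62). Of 16 interferon response genes 12 rose and 0 fell, with Gbp2 at 134 and 164 CPM against 9.8 and 19.4 and Irf7 at 388 and 333 CPM against 70.9 and 35.6. Of 8 co-stimulation and checkpoint genes, Cd40, Tnfsf9 and Cd274 (PD-L1) rose and Vsir fell. Cd86, the ligand of CD28, was not called (log2 fold change -0.05).

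Of 14 chemokines 5 rose and 2 fell, against 19.1% and 18.9% of all genes. The neutrophil attractant Cxcl2 (log2 fold change 5.46), Ccl22 (4.72), Ccl9, Ccl6 and Cxcl16 were higher, and Ccl12 (-3.06) and Ccl3 (-1.47) lower. Il1b stood at 2018 and 1317 CPM against 271 and 22.7 (log2 fold change 3.87), whereas Tnf stood at 35.4 and 6.1 CPM against 267 and 159 (-3.22) and Il1a fell as well. Of 10 receptors tested 7 rose, led by Ccr2 and Ccr7 and including Flt3, the growth factor receptor of dendritic cells (5.65). Csf1r, the receptor that macrophages and microglia depend on, fell (-3.58), as did Csf3r. All 3 C1q genes, which open the classical complement cascade, fell by 3.00 to 3.58 on the log2 scale, and properdin (Cfp) rose.

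C-type lectins rose in 10 of 11 genes and fell in 1, with Cd209a at 182 and 379 CPM against 1.1 and 0. Of 14 lipid and disease-associated genes 3 rose and 5 fell, against 19.1% and 18.9% of all genes. Lgals3 (log2 fold change 3.36), Gpnmb (2.67) and Fabp5 (1.55) were higher, and the lipid sensor Trem2 (-4.42), Cst7, Cd9, Abca1 and Cd63 lower. All 6 microglial markers outside the gate fell. Oligodendrocyte transcripts were present in both groups, at 169 and 154 CPM summed in the chosen cells of brain replicates 1 and 2 and 222 CPM in microglia-gated cells. Microglia-gated cells were shallower (median 3780 UMIs); after thinning every cell to 2000 UMIs, 1467 genes were called. Without brain replicate 1 the count was 448, and without brain replicate 2 it was 725.

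Against class II low C1q macrophages, the chosen cells were higher in mature dendritic and monocyte genes and lower in border-associated macrophage and lysosomal genes. These 182 macrophages had at least 10 UMIs of C1qa, C1qb and C1qc, fewer than 10 class II UMIs and few microglial UMIs, and 105, 27, 26 and 14 of them came from brain replicates 1 and 2, liver replicate 2 and subcutaneous replicate 1. In the same fit, with the C1q genes also left out, 1241 of 4875 genes were called (25.5%), 815 higher (16.7%) and 426 lower (8.74%; median log2 fold change over all genes 0.14). Here too, genes that vary with class II or C1q transcripts from cell to cell were bound to differ. The calls and list counts of this comparison therefore describe the gated cells and are no independent evidence. Napsa stood at 461, 574, 1021 and 372 CPM in these 4 libraries against 0 UMIs in their macrophages, at least 57.4-fold higher (edgeR adjusted p = 1.5e-17). Gpr171, Dusp5, Klrd1, Ciita, Klra17, Cd7 and H2-Oa likewise had 0 UMIs in the macrophages of the 4 libraries fitted, with lower bounds of 11.6-fold (Cd7) to 20.3-fold (Gpr171). Of the macrophages outside the fit, the 7 of liver replicate 3 held 5 UMIs of Napsa (274 CPM) and 1 of Dusp5.

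The genes lower in the chosen cells were Smim1, Folr2, Cd209g, Cd209f, Fcna, Gas6, Hpgd and Cd209b. Folr2, a folate receptor of tissue macrophages, stood at 2.7, 6.1, 0 and 39.2 CPM in the chosen cells and at 21.9, 38.6, 787 and 1464 CPM in the macrophages (log2 fold change -4.53 ± 0.40 SE, edgeR adjusted p = 9.5e-13). It was lower in each of the 4 libraries, while its level in the chosen cells of subcutaneous replicate 1 exceeded that in the macrophages of both brain libraries. Gas6, the bridge between dying cells and the receptors Axl and Mertk, stood at 18.1, 16.8, 0 and 20.5 CPM against 197, 328, 116 and 553 CPM, with no overlap. After thinning, 11 of the 16 named genes could be tested, and Cd209f (log2 fold change -2.60, edgeR adjusted p = 0.06) and Fcna (-1.39, adjusted p = 0.502) lost their call. Gas6 kept its call, while Smim1, Folr2, Cd209g, Hpgd and Cd209b were not tested after thinning. In the 4 libraries, Smim1 and Cd209b rested on 15 macrophage UMIs each and Cd209g on 22. Of the 16 named genes, 10 kept their call in every alternative in which they were tested. Sirpb1c, Klra17 and the Cd209 genes belong to families of similar copies, so their counts are uncertain.

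All 7 border-associated macrophage genes fell, from Mrc1 (log2 fold change -1.26) to Folr2, and so did 9 of 12 lysosomal genes, led by Ctsd (-3.54). Over all genes 16.7% rose and 8.74% fell in this comparison. Of 14 lipid and disease-associated genes 8 fell and 0 rose, including Apoe (-2.16) and Trem2 (-2.84). Cd5l and Vsig4, genes of Kupffer cells, the macrophages of liver sinusoids, stood at 8172 and 4630 CPM in the liver macrophages and at 0 in the chosen cells of that library. Of 12 class II pathway genes 6 rose and 3 fell (median 2.34), and those that fell were again Ctss, Ctsl and Lgmn. In all, 6 of 8 co-stimulation genes rose and 0 fell, among them Tnfsf9, Cd274, Cd83 (2.20) and Cd40 (2.04). All 7 mature dendritic genes rose. The 10 monocyte markers summed to 3641 CPM in all chosen cells and 355 CPM in all these macrophages. Only 3 of the 10 were found in at least 20% of the chosen cells.

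Immediate early and heat shock genes rose in 10 of 11 cases, with Junb at 3051, 1692, 2107 and 2006 CPM against 158, 57.9, 347 and 423 CPM (log2 fold change 3.66, edgeR adjusted p = 2.3e-08). Zfp36 (3.12), Ier2 (3.47) and Nr4a1 (3.95) rose as well. Against microglia-gated cells 6 of the same 11 genes fell and 0 rose. The macrophages were shallow, at a median of 1651.5 UMIs against 6548. Thinning to 2000 UMIs left out 58 of 105, 18 of 27, 20 of 26 and 7 of 14 of them and left 512 calls, and without brain replicate 1 there were 402 and without brain replicate 2 503. The part of depth in these calls was not tested further.

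Within the chosen cells, sites could be compared on 4 libraries only: 216 and 113 cells of brain, 16 of liver and 88 of subcutaneous tissue. Their spread rests on the 2 brain libraries (1 residual degree of freedom), liver and subcutaneous tissue are assumed to vary like brain, and the contrasts share libraries. Clusters 1 and 2 were the fullest in brain replicate 1 (55 and 49 of 216 cells) and replicate 2 (27 and 37 of 113), clusters 1 and 5 in subcutaneous replicate 1 (30 and 21 of 88), and cluster 4 held 8 of 16 in liver replicate 2. Site and makeup of the mixture therefore move together.

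Chosen cells of brain and of the subcutaneous allograft differed in 195 of 6666 genes (2.93%), 78 higher (1.17%) and 117 lower (1.76%) in brain, by edgeR at an adjusted p under 0.05. DESeq2 called 16. Ifitm1, an interferon-inducible membrane protein, stood at 2096 and 2695 CPM in the brain libraries against 141 CPM for liver replicate 2 and 93.8 CPM for subcutaneous tissue (log2 fold change 4.60 ± 0.22 SE, edgeR adjusted p = 1.5e-08). The 5 chosen cells of liver replicate 1, outside the fit, held it at 586 CPM and the 3 of liver replicate 3 at 0. Ifitm1 was a leading gene of cluster 2, found in 88.4% of that cluster's cells. Within the monocyte-like cluster alone it was still higher in brain (log2 fold change 2.66, adjusted p = 1.2e-07). Ifitm1 lies at chr7:140967221-140969825 (GRCm38, plus strand).

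Retnla, a secreted product of macrophages stimulated by interleukin 4, had 747 UMIs (1274 CPM) in subcutaneous tissue and 0 UMIs in brain and in liver, at least 913-fold lower in brain (edgeR adjusted p = 2.3e-10). Cxcl13, the chemokine that draws B cells, stood at 101 CPM in subcutaneous tissue and at 0 UMIs elsewhere. The lysozyme Lyz1 (206 CPM against 2.7 and 4.6 in brain), the lipase Lpl (184 against 5.4 and 9.2), Fxyd2, Bex6, Fcrls and Cd36 were lower in brain too. Retnla, Lyz1 and Lpl kept their call in every alternative tested, DESeq2 and the monocyte-like cluster included. Cxcl13 and Fxyd2 kept theirs in the 7 alternatives in which each was tested, whereas Bex6, Fcrls and Cd36 each lost it in at least 1. Lyz1 shares much of its sequence with Lyz2, which stood at 2894 and 2225 CPM in brain against 9160 CPM (log2 fold change -1.90).

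The other genes named for a higher level in brain were Hic1, Adamdec1, Itgae, Clu, Grhpr, Aldoc and Tmem158, and each of these 7 lost its call in at least 1 alternative. Hic1, a transcriptional repressor, stood at 101 and 91.8 CPM in brain and 86.9 in liver replicate 2 and had 0 UMIs in subcutaneous tissue (at least 19.2-fold, edgeR adjusted p = 5.0e-05; DESeq2 adjusted p = 0.06). Itgae, the CD103 integrin chain of tissue dendritic cells, stood at 36.8 and 33.6 CPM in brain and 76.0 in liver replicate 2 against 0 UMIs. Aldoc is also an astrocyte gene: the 4 astrocyte markers summed to 38.1 and 50.5 CPM in brain cells, 32.6 in liver replicate 2 and 1.7 in subcutaneous tissue. The 4 oligodendrocyte markers summed to 169 and 154 CPM in brain, 10.9 in liver replicate 2 and 13.6 in subcutaneous tissue, with 1 of 4 at 0 in each brain library and 3 of 4 at 0 in the others. The part of such transcripts in the site differences was not tested.

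**Figure D5:**
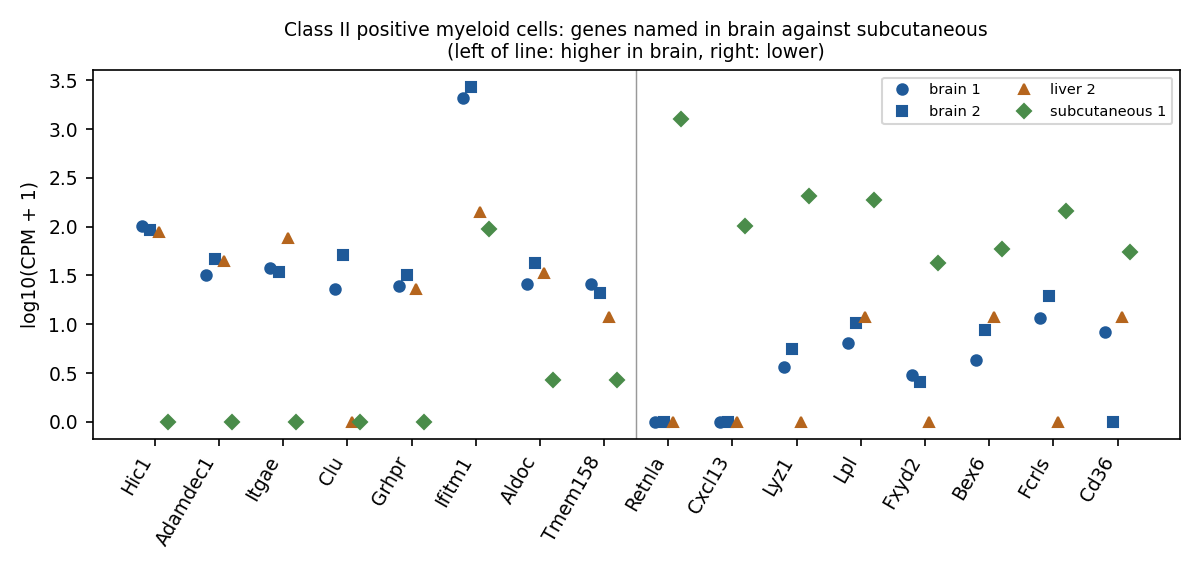
Levels (y axis, log10 of CPM + 1) of the 16 genes named for brain against subcutaneous tissue (x axis) in the chosen cells of the 4 libraries with at least 10 of them (symbols). Ifitm1 is at 2096 and 2695 CPM in brain against 141 and 93.8, and Retnla is at 1274 CPM in subcutaneous replicate 1 and at 0 elsewhere.

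By list, brain against subcutaneous tissue gave 2 higher and 0 lower of 15 class II pathway genes outside the gate, H2-Oa (126 and 136 CPM against 22.2, log2 fold change 2.48) and H2-DMb2 (213 and 259 against 71.7, 1.64). Over all genes 1.17% were higher and 1.76% lower in brain, which is the background for this and the following list counts of this contrast. The 4 class II genes of the gate differed by -0.09 to 0.06 on the log2 scale. Of 8 hypoxia and glycolysis genes 3 were higher and 0 lower: the lipid droplet protein Hilpda (79.6 and 132 CPM against 13.6), the glucose transporter Slc2a1 (40.8 and 56.6 against 8.5) and Bnip3 (110 and 97.9 against 27.3). Of 14 lipid and disease-associated genes Fabp5 (1191 and 1340 CPM against 297), Spp1 and Itgax were higher and Lpl and Abcg1 lower. Il1rn, the interleukin 1 receptor antagonist, was higher in brain (log2 fold change 3.31), while Il1b was not called (0.45).

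Of 6 monocyte genes 1 was higher, Plac8 (log2 fold change 0.67), and 4 were lower, Ccr2 (-1.35), Fn1 (-2.29), F13a1 (-2.49) and S100a4 (-0.87). Of 8 S100 and granule genes 5 were lower and 0 higher. Of 6 border-associated macrophage genes Mrc1 (20.7 and 38.2 CPM against 106) and Folr2 were lower and 0 higher, and that list summed to 76.3 and 205 CPM in brain against 427 CPM. Of 17 interferon response genes Gbp2 was higher (2.11) and Irf7, Ifi27l2a and Ly6e lower. Among transcription factors Runx3 (1.35) was higher and Klf4 (-1.57) lower, with 14 of 16 not called.

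Brain against liver gave 62 called genes of 6666 (0.93%), 43 higher (0.645%) and 19 lower (0.285%) in brain, and DESeq2 called 14. The median over all genes was 0.13 on the log2 scale. Ccr7, the mark of mature dendritic cells, stood at 355 and 268 CPM in brain and 355 in subcutaneous tissue but had 0 UMIs among the 16 cells of liver replicate 2 (at least 10.1-fold higher in brain, edgeR adjusted p = 0.00078). The 3 chosen cells of liver replicate 3, which no fit included, held 29 UMIs of Ccr7 (2259 CPM), more than either brain library, so the call describes liver replicate 2 and not liver as a site. Cd207, the lectin langerin, had 34 UMIs (369 CPM) in liver replicate 2, 0 in the other liver libraries, 3 in subcutaneous tissue and 0 in brain (at least 264-fold lower, adjusted p = 2.9e-06). Ramp3 (168 and 187 CPM), Lilr4b, Timp2, Ccl12, Eif2s3y and Ifi202b had 0 UMIs in liver replicate 2. Ramp3 had 1 UMI in liver replicate 1 and 4 in replicate 3, and Timp2 had 6 in replicate 3. Hspa1b, Cd34, Sult1a1, Ddit4, Ap1s2, Tsc22d1 and Smad7 were lower in brain, and Ap1s2 stood at 76.3 and 59.6 CPM against 445. Of these 16 genes Ap1s2, Ccr7, Cd207, Ifitm1 and Ramp3 kept their call in every alternative in which they were tested. DESeq2 gave an adjusted p for only 2 of the 16, Ccr7 and Ifitm1, and none for Ap1s2, Cd207 or Ramp3.

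Eif2s3y is a Y-linked gene, and the 4 Y-linked genes Ddx3y, Eif2s3y, Kdm5d and Uty summed to 175 and 153 CPM in the chosen cells of brain and 97.2 CPM in subcutaneous tissue. They had 0 of 130526 UMIs in all 24 liver cells, which allows up to 23 CPM. Host sex is not in the labels, so sex and site cannot be told apart for the liver contrasts. With only the chosen cells that had at most 2 C1q UMIs, brain against liver gave 12 calls and brain against subcutaneous tissue 63.

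Liver against subcutaneous tissue, 1 library each, gave 172 of 6666 genes (2.58%), 54 higher (0.81%) and 118 lower (1.77%) in liver, with a median over all genes of -0.15; DESeq2 called 31. The spread behind these calls comes from the brain pair alone, so they compare those 2 libraries and not the sites. With 16 liver cells, Hic1, Hspa1b, Itgae, Wdr11, Adamdec1 and Camkk1 were called from 4 to 8 UMIs against 0, and Cd207 (34 against 3 UMIs, ratio of CPM 72.1, counting interval 22.7 to 367) and Cd34 were higher. Retnla, Ccr7, Lyz1, Ly6a, Lilr4b, Ifi207, Timp2 and Fcrls had 0 UMIs in liver replicate 2, and of these 16 genes only Retnla and Ccr7 kept their call in every alternative tested, none of which included liver replicate 3. Ccr7 and Timp2 were present there, and Ifi207 had 1 UMI in liver replicate 1. Brain against the mean of both other sites gave 48 genes (0.72%), 34 higher (0.51%) and 14 lower (0.21%); DESeq2 called 4. Ifitm1 (log2 fold change 4.37, edgeR adjusted p = 2.5e-09), Ramp3, Apoc1, Htr7, Eif2s3y, Hic1, Hilpda and the myelin gene Mbp were higher. Mbp stood at 158 and 145 CPM in brain against 10.9 and 13.6, and at 54.8 CPM in tumour cells. Cd207, Clec4b1 (44.8 and 59.6 CPM against 130 and 534), Fgfr1, Txnip, Klf4, Ap1s2, Slamf9 and S100a10 were lower in brain, and of these 16 genes only Ifitm1 kept its call in every alternative tested.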

How the data were processed

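RNA of single cells from 8 allografts was counted by the authors. Per the file headers and the submitters' processing notes, the deposited matrices hold UMI counts per gene and cell from Cell Ranger 3.0.0 with STAR on mm10; other settings are not given in the sources used here. Values are whole-number counts as deposited. The annotation was GENCODE M21, where 22029 of 22056 genes had a position.

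Cells were gated as described and their counts were summed per library and gate. Sums of at least 10 cells entered edgeR 4.0.16 (R 4.3.3; TMM factors, filterByExpr, robust quasi-likelihood, adjustment over all genes tested). The fit of gated groups had 12 sums, 5 residual degrees of freedom and a biological variation of 18.2%; that of sites had 4 sums and 15.6%. The SE is the log2 fold change over the root of F. DESeq2 1.42.0 was an alternative. Shares were compared by exact permutation (scipy 1.17.1), with exact intervals at 95% and a floor of 3 counts. Clusters used scanpy 1.11.5 (1000 variable genes, 20 components, 15 neighbours, Leiden resolution 0.8). No doublet caller was run. The steps were tested on simulated data. Simulated 4-fold changes were recovered in 97.8% (against microglia-gated cells), 90.2% (against class II low macrophages), 71.3% (brain against subcutaneous) and 29.8% (brain against liver). For 2-fold changes it was 33.3%, 17.2%, 6.06% and 3.03% in the same order, so a gene not called may still differ.

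Genes were named by rule: per comparison the 8 that rose most and the 8 that fell most at an adjusted p under 0.05, at least 20 CPM in the higher group, and the same direction in every library or no overlap between sites, without gate, ribosomal, mitochondrial and unnamed gene models, plus list genes. Of 330 listed genes 322 were in the tables. The cells, lists and rules were chosen with earlier results of these data known. Alternatives covered tool, scaling, filters, thinning, cell limits and left-out libraries. The sum of chosen cells of a library was 92093 to 1495044 UMIs where tested, which limits low genes most in liver.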

Additional observations from a re-analysis of the deposited data

How the results depend on the processing

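The difference in share of kept cells kept its direction in all 16 alternatives and its side of the threshold in 11. Without single libraries it ran from 2.14 to 5.98 points, and it lost its call without brain replicate 1 (exact permutation p = 0.2), brain replicate 2 (0.143) or any liver replicate (0.0952). The share among myeloid cells stayed uncalled in all 17 alternatives, at 9.04 to 44.0 points without single libraries. Calls against microglia-gated cells ran from 448 to 2243 without single libraries, and those against class II low macrophages from 402 to 1286, with 512 after thinning. Without the library term, that is with no replicate block, the counts were 1407 and 926.

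Site counts moved most. DESeq2 gave 16 (brain against subcutaneous), 14 (brain against liver), 31 (liver against subcutaneous) and 4 (brain against the mean of the others), and no filter on low counts gave 422, 173, 325 and 206. Thinning gave 117 for brain against subcutaneous and 82 for brain against the others, and cells with no eGFP UMI gave 121 for brain against subcutaneous. Libraries of at least 5 chosen cells gave 102 (liver contrast of brain) and 98 (brain against the others). The alternatives chosen after seeing the data were cells with at most 2 C1q UMIs, with 63, 12, 19 and 5 calls, the monocyte-like cluster, with 129 for brain against subcutaneous, and the replicate block. The block over libraries of at least 5 cells gave 76, 53, 69 and 35. Nothing says whether libraries of the same number belong together. Across 4521 genes, brain and liver deviations of the same numbers correlated at 0.0386. Liver replicate 1 held only 5 chosen cells, so counting error limits this value and it cannot decide the question. At 10 cells the block left no residual degrees of freedom and was not run, and the same held for leaving out either brain library. Leaving out the liver library gave 242 for brain against subcutaneous, and leaving out the subcutaneous library 82 for brain against liver. The cause of these moves was not tested, beyond fewer cells or libraries where a setting removes them. No named gene reversed.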

Other observations

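The rule leaves out 88 cells that had both at least 3 microglial UMIs and at least 10 class II UMIs, 65 and 18 of them in brain, 1 in liver replicate 2 and 4 in subcutaneous replicate 1. Their median was 7640.5 UMIs, 193 class II UMIs and 98 C1q UMIs. In the brain libraries Ciita stood at 45.5 and 59.7 CPM in them and Ccr2 at 204 and 179 CPM, both at 0 UMIs in the microglia-gated cells of these libraries. Ifitm1 stood at 121 and 68.2 CPM, against 2096 and 2695 CPM in the chosen cells of brain.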
